A study of Mus musculus with 12 samples.

Results

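CD8+ and CD4+ donor T cells that had infiltrated the liver of mice with acute graft-versus-host disease (GVHD) were compared across all genes in the WT donor group, which comprised 4 of the 12 libraries of the series (2 of CD8+ and 2 of CD4+ T cells). The 4 libraries were taken by their labels, with no use of expression values. All recipients were BALB/c mice. After lethal irradiation they received C57BL/6 cells, namely WT bone marrow depleted of T cells and, with it, T cells of the genotype under study. The donor T cells were sorted from the liver on day 6 after hematopoietic cell transplantation (HCT). The labels give tissue, cell type, genotype, transplantation, and day, and the rest of this design is from the study's methods, since the protocol text in the labels describes cultured cells of another experiment. The WT T cells carried no engineered allele. For comparison with the rest of the series, 4 libraries came from STAT3-/- donors, in which Cre recombinase driven by the Cd4 promoter, which is active in the precursors of both lineages, had removed floxed Stat3, and 4 came from STAT3-/-PD-1-/- donors, which also lacked PD-1. Each library was a pool of liver lymphocytes from several recipients, so a replicate was a pool and not a mouse. Cells had been sorted as H-2Kb+TCRβ+ and then as CD4+ or CD8+, so that Cd4 and the Cd8 genes check the labels and are not findings. Counts on genes totalled 22938050 and 23640160 for CD4+ and 23493547 and 24551477 for CD8+ T cells.

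CD4+ T cells recognize peptides on MHC class II and act mainly as helpers, through cytokines and through ligands such as CD40L, whereas CD8+ T cells recognize peptides on MHC class I and act mainly as killers, through granules that carry perforin and granzymes. The choice between the lineages is made in the thymus, where ThPOK (encoded by Zbtb7b) maintains the CD4+ and Runx3 the CD8+ program. In acute GVHD both lineages are activated by host antigen, and the liver is one of the target tissues. In bulk libraries like these, a difference in the share of cells that express a gene and a difference in RNA per cell cannot be told apart.

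The sorted populations carried the RNA of their own coreceptor and little of the other. Cd4 measured 1844 and 1881 CPM (counts relative to the library total, scaled by TMM) in the CD4+ libraries and 0.356 and 1.48 CPM in the CD8+ libraries. Cd8a measured 0.500 and 0.804 CPM in CD4+ and 1191 and 1339 CPM in CD8+ libraries. The trace of Cd8a in CD4+ libraries was 0.0395% and 0.0636% of its mean in the CD8+ libraries, and the trace of Cd4 in CD8+ libraries was 0.0191% and 0.0794% of its mean in the CD4+ libraries. Cd8b1, the β chain of the CD8 coreceptor, left a larger trace in the CD4+ libraries, at 13.2 and 10.0 CPM against 1033 and 1056 CPM, which is 1.26% and 0.961% of its mean in CD8+ T cells. Per length, the RPKM of Cd8b1 was 55.7 and 26.4 times that of Cd8a in the CD4+ libraries and 1.83 and 1.67 times in the CD8+ libraries. Genes of the T cell receptor complex were high in both subsets, with Cd3e at 533 and 676 CPM in CD4+ and 725 and 705 CPM in CD8+ libraries.

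Genes that define hepatocytes and erythroid cells were at or near 0, while the myeloid, B cell, endothelial, and NK cell lists each held genes at higher levels. The 7 hepatocyte markers together summed to 1.5 and 3.3 CPM in the CD4+ and 1.51 and 3.24 CPM in the CD8+ libraries, with Trf the most abundant, and the 5 erythroid markers to at most 0.13 CPM. The 9 myeloid markers summed to 56.8 and 72.4 CPM in CD4+ and 98.2 and 103 CPM in CD8+ libraries, most of it Itgam, which activated T cells also express, with Cd68 next, while the Kupffer cell gene Clec4f measured 0.0909 and 1.65 CPM in CD4+ and 0.222 and 1.48 CPM in CD8+ libraries. Clec4f was thus higher in replicate 2 of both subsets, and so were the other Kupffer cell and macrophage genes C1qa, C1qb, Csf1r, Lyz2, and Marco. The 7 B cell and plasma cell markers summed to at most 2.55 CPM in CD4+ and to 15.3 and 11 CPM in CD8+ libraries, most of it Cd79b, with Ms4a1 at 0 in all 4 libraries. Of the endothelial markers, Pecam1, which T cells also express, measured 179 and 182 CPM in CD4+ and 117 and 127 CPM in CD8+ libraries, while Cdh5, Kdr, and Stab2 were below 1 CPM in all 4 libraries. The 5 NK cell markers summed to 20.5 and 20.9 CPM in CD4+ and 102 and 110 CPM in CD8+ libraries, led by Klrb1c, but the defining NK receptor gene Ncr1 was at 0 in both CD4+ libraries and at 0.133 and 0.0399 CPM in the CD8+ libraries. The NKT cell gene Zbtb16 measured 0.500 and 0.127 CPM in CD4+ and 0.311 and 0.160 CPM in CD8+ libraries. The part of NK cells, which the sort on TCRβ was to leave out, or of NKT cells in the receptor genes described below was not tested.

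Of 12334 genes tested, 1294 (10.5%) differed between WT CD8+ and CD4+ T cells at an adjusted p under 0.05 (edgeR quasi-likelihood test with Benjamini-Hochberg adjustment, 2 libraries a side, all 12 libraries sharing 1 estimate of the spread). Of these, 605 (4.91% of the genes tested) were higher in CD8+ and 689 (5.59%) in CD4+ T cells, with a median log2 fold change over all genes of 0.00192. The larger number on the CD4+ side turned with a mean CPM of at least 5 (466 and 447) and with limma on log2(RPKM + 0.1) (464 and 456). The genes higher in CD4+ T cells reached larger folds, with 113 of them at least 8-fold, against 52 of the genes higher in CD8+ T cells, and the median size of the log2 fold change was 1.23 and 1.05. The 4 libraries did not overlap for any of the 1294 genes, where 48.1% of all genes tested had no overlap. When each CD8+ library was compared with the CD4+ library of the same replicate number (the replicate block), 2991 genes (24.3%) passed, 1386 (11.2%) higher in CD8+ and 1605 (13%) in CD4+ T cells, and these included all 1294 genes. Without 1 library the count was lower, at 611 without CD8+ replicate 1, 660 without CD8+ replicate 2, 673 without CD4+ replicate 2, and 819 without CD4+ replicate 1.

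**Figure D1:**
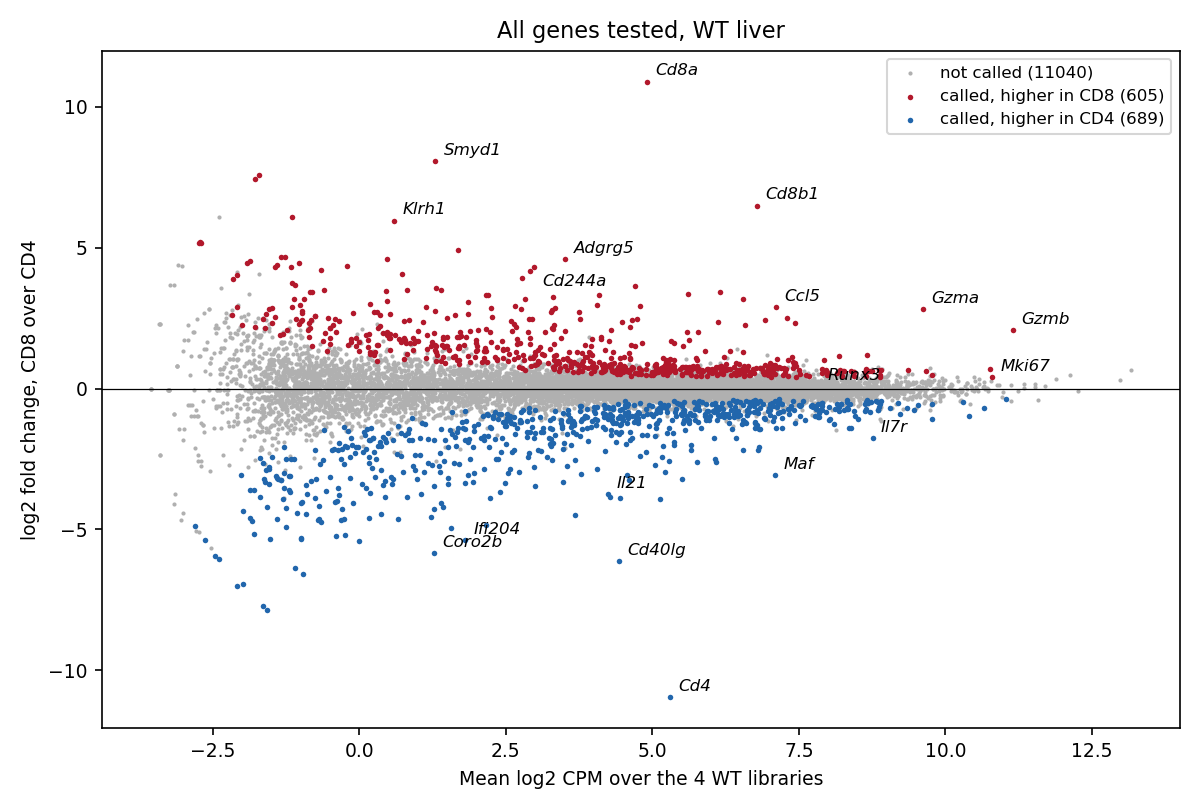
Each point is 1 of the 12334 genes tested, with its mean log2 CPM over the 4 WT libraries on the x axis and its log2 fold change of CD8+ over CD4+ T cells on the y axis; red and blue points passed an adjusted p of 0.05. Cd8a, Smyd1, and Cd8b1 lie at the top and Cd4 and Cd40lg at the bottom, while abundant genes such as Mki67 passed with small differences.

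Among the transcription factors that set or keep the lineage, the gene for ThPOK differed and the gene for Runx3 did not pass the test. Of the 14 lineage genes tested, the coreceptor genes left out, 1 was higher in CD8+ and 5 in CD4+ T cells (2 and 8 with the replicate block), beside 4.91% and 5.59% of all genes (11.2% and 13%). Zbtb7b measured 166 and 208 CPM in CD4+ and 66.8 and 70.0 CPM in CD8+ libraries, a log2 fold change of -1.45 ± 0.31 (SE, adjusted p = 0.0155). The CD8+ libraries thus also held a clear level of this CD4+ lineage gene. The call for Zbtb7b was lost without either CD8+ library or without CD4+ replicate 2, and the replicate block gave an adjusted p of 5.07e-05. Runx3 measured 203 and 246 CPM in CD4+ and 243 and 234 CPM in CD8+ libraries, which overlap (log2 fold change 0.09 ± 0.13, adjusted p = 0.779). Its partner Cbfb, at 279 and 240 against 326 and 264 CPM, did not pass either. Gata3, which supports CD4+ development and Th2 cells, was lower in CD8+ T cells, at 137 and 91.7 against 274 and 257 CPM (log2 fold change -1.21). Tcf7, which encodes the memory and stemness factor TCF1, showed the steepest difference of these factors, with 134 and 189 CPM in CD4+ and 26.9 and 30.2 CPM in CD8+ libraries (log2 fold change -2.50 ± 0.28, adjusted p = 0.000461). Its relative Lef1 differed less, at 145 and 170 against 112 and 109 CPM (log2 fold change -0.51), and the chromatin organizer Satb1 was at 473 and 584 CPM in CD4+ and 240 and 263 CPM in CD8+ libraries (log2 fold change -1.07). Tox, which is induced by lasting antigen stimulation, was higher in CD8+ T cells, at 186 and 140 against 87.7 and 94.7 CPM (log2 fold change 0.84). Runx1, Bcl11b, Myb, and Ets1, which act in the thymus and in mature T cells of both lineages, passed with the replicate block only, Myb higher in CD8+ and the others in CD4+ T cells, and Patz1 and Ikzf1 did not pass. The call for Lef1 was lost in the same cases as that for Zbtb7b, and that for Tox without replicate 1 of either subset.

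**Figure D2:**
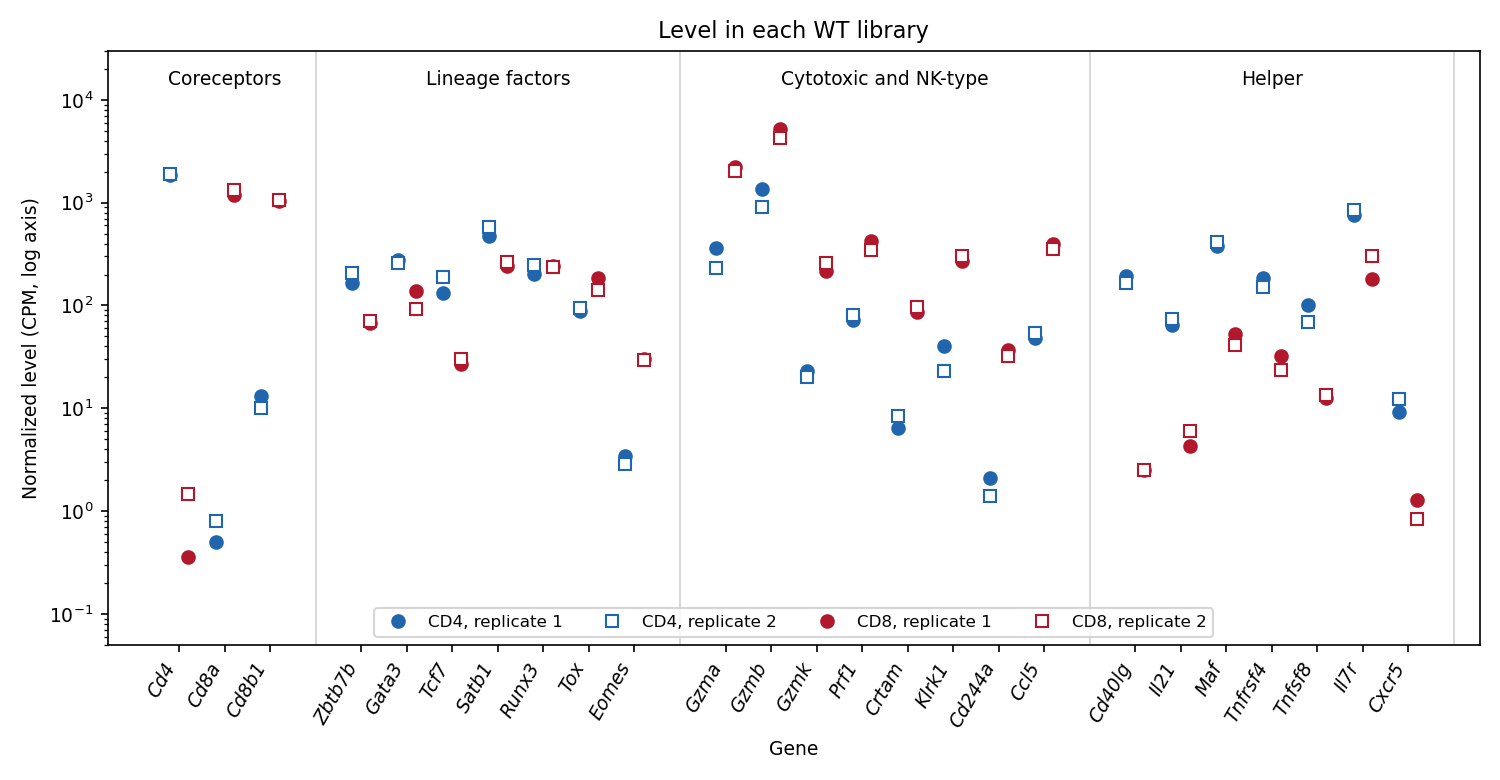
The level of 25 genes is plotted in CPM on a log axis for each of the 4 WT libraries, CD4+ in blue and CD8+ in red, with filled circles for replicate 1 and open squares for replicate 2. The CD8+ and CD4+ points are apart for every gene shown except Runx3.

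CD8+ T cells had more RNA for several granule proteins. Of the 29 tested genes on the cytotoxic list, 10 were higher in CD8+ and 1 in CD4+ T cells, beside 4.91% and 5.59% of all genes, with a median log2 fold change of 0.53 that was 0.302 without CD4+ replicate 2. Gzmb, the granzyme that activates caspases in target cells, measured 5213 and 4207 CPM in CD8+ and 1349 and 898 CPM in CD4+ libraries, 4.19-fold higher (log2 fold change 2.07 ± 0.27, adjusted p = 0.00112). Gzma, a tryptase, measured 2205 and 2013 CPM in CD8+ and 363 and 231 CPM in CD4+ libraries, 7.10-fold higher. Gzmk, which marks a memory-like cytotoxic state, measured 215 and 257 CPM in CD8+ and 23.3 and 20.1 CPM in CD4+ libraries, 10.9-fold higher (adjusted p = 1.43e-05). Prf1, the gene of the pore-forming protein perforin, measured 426 and 346 against 72.9 and 81.5 CPM, 5.00-fold higher. The CD8+ and CD4+ libraries did not overlap for any of these genes, but CD4+ T cells were not without them: per length, Gzmb had a mean RPKM of 748 in CD4+ T cells, above the RPKM of 217 that Gzmk and 190 that Prf1 had in CD8+ T cells.

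The granule genes Nkg7, Ctsw, Cst7, and Gzmm, with log2 fold changes of 0.65, 0.70, 0.72, and 0.68, differed by less than 2-fold. The call for Gzmm was lost whichever library was left out, those for Nkg7 and for Tnfsf10 below without CD8+ replicate 1 or CD4+ replicate 2, and that for Ctsw without CD8+ replicate 2. Crtam, an adhesion molecule of activated cytotoxic cells, measured 86.6 and 97.2 against 6.46 and 8.34 CPM (log2 fold change 3.63). The death ligands did not follow the granule genes. Tnfsf10, which encodes TRAIL, was higher in CD4+ T cells, at 123 and 150 against 62.0 and 78.9 CPM (log2 fold change -0.95). Fasl measured 162 and 45.1 CPM in CD4+ and 186 and 103 CPM in CD8+ libraries, more in replicate 1 of both subsets, and did not pass the test.

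Gzmb, Prf1, and Gzmk were higher together in CD8+ T cells, and the 250 bases before the start of each are shown (RefSeq, build GRCm38.p6, 5′ to 3′ on the strand of the gene). Capitals mark matches to the core of the RUNX motif, TGTGGT, or to the core of the T-box motif, TCACAC, on either strand. The window of Gzmb is chr14:56262335-56262584 on the minus strand, that of Prf1 is chr10:61297586-61297835 on the plus strand, and that of Gzmk is chr13:113180966-113181215 on the minus strand.
Gzmb: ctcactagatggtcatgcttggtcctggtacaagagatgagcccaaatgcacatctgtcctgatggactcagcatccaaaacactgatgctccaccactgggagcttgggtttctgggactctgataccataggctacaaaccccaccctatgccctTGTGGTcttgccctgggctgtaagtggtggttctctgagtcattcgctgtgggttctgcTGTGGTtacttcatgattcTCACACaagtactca
Prf1: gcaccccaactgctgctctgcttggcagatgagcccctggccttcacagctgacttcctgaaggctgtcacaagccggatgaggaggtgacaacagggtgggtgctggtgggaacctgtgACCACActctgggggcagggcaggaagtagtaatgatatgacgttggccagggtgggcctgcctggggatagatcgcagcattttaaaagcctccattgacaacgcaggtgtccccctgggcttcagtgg
Gzmk: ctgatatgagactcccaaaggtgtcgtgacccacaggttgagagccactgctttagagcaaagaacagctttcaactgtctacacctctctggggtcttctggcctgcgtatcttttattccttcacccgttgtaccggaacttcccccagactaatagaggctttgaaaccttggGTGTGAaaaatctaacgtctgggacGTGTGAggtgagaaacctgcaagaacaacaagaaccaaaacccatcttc
The window of Gzmb held 2 RUNX core matches and 1 T-box core, that of Prf1 held 1 RUNX core, and that of Gzmk held 2 T-box cores, with no overlap between matches. The letters of the RUNX core were in 13.1% of the 475 windows of genes higher in CD8+ T cells, in 12.1% of the 528 windows of genes higher in CD4+ T cells, and in 11.2% of the 9769 windows of all genes tested. The letters of the T-box core were in 10.1%, 8.33%, and 8.99%. A match of these letters is a description of the sequence and not a binding site.

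Receptors first described on NK cells, listed with their adaptor genes Fcer1g, Tyrobp, and Hcst and with Samd3, were mostly on the CD8+ side. Of the 23 tested members, 12 were higher in CD8+ and 1 in CD4+ T cells, beside 4.91% and 5.59% of all genes, with a median log2 fold change of 1.72. Klrk1, which encodes the activating receptor NKG2D, measured 272 and 303 CPM in CD8+ and 40.8 and 22.9 CPM in CD4+ libraries (log2 fold change 3.17 ± 0.28, adjusted p = 8.90e-05). Klrc1, the gene of the inhibitory receptor NKG2A, measured 215 and 210 against 53.4 and 34.7 CPM (log2 fold change 2.27). Its partner chain Klrd1 measured 186 and 198 against 106 and 61.9 CPM and passed with the replicate block (adjusted p = 0.00790) but not without it (adjusted p = 0.0615). Cd244a, the SLAM receptor 2B4, measured 37.0 and 32.6 CPM in CD8+ and 2.09 and 1.40 CPM in CD4+ libraries (log2 fold change 4.32), and Cd160 measured 152 and 166 against 34.0 and 27.6 CPM (log2 fold change 2.37). The exception was Klrb1f, at 21.1 and 18.6 CPM in CD4+ and 5.65 and 9.79 CPM in CD8+ libraries, whose call was lost without CD8+ replicate 1. The NK cell markers given above moved with this list: Klrb1c, at 48.9 and 56.2 against 11.6 and 11.3 CPM, and Fcer1g, at 22.1 and 23.5 against 5.00 and 6.18 CPM, are members of both. Reads of the Klr and Klra families and of the granzymes, which have near-identical copies, could be split or lost between members in counting.

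Of the 10 chemokine genes tested, 1, Ccl5, was higher in CD8+ and 1, Ccl1, in CD4+ T cells (4.91% and 5.59% of all genes), with a median log2 fold change of 0.27. Ccl1, a ligand of CCR8, measured 24.9 and 38.1 CPM in CD4+ and 2.76 and 6.63 CPM in CD8+ libraries (log2 fold change -2.74). Ccl5, a chemokine that recruits T cells and monocytes, measured 396 and 357 CPM in CD8+ and 47.8 and 53.5 CPM in CD4+ libraries (log2 fold change 2.89 ± 0.12, adjusted p = 1.27e-06). Ccl4 (85.0 and 73.1 against 68.4 and 50.0 CPM) and Xcl1 (36.3 and 23.5 against 11.5 and 5.17 CPM) passed only with the replicate block (adjusted p = 0.0104 and 0.000276), and so did Cxcl10, lower in CD8+ T cells, at 9.37 and 2.71 CPM in CD4+ and 5.78 and 0.799 CPM in CD8+ libraries (adjusted p = 0.0480). Eomes, the T-box factor of cytotoxic and memory cells, measured 30.3 and 29.7 CPM in CD8+ and 3.46 and 2.88 CPM in CD4+ libraries (log2 fold change 3.24 ± 0.20). Its relative Tbx21, which encodes T-bet, measured 117 and 146 CPM in CD8+ and 95.3 and 148 CPM in CD4+ libraries and overlapped. Of the 54 effector transcription factors tested, 3 were higher in CD8+ T cells (Eomes, Ikzf3, and Irf8) and 8 in CD4+ T cells (Id3, Bach2, Egr2, Egr3, Ikzf2, Nfatc3, Mxd4, and Nfkb1). With the replicate block 4 were higher in CD8+ and 23 in CD4+ T cells, beside 11.2% and 13% of all genes. Those that passed with the block only included the immediate early genes Jun, at 135 and 98.1 CPM in CD4+ and 62.5 and 41.7 CPM in CD8+ libraries (adjusted p = 4.42e-05), Fos, at 300 and 126 against 145 and 46.5 CPM (adjusted p = 0.000168), and Nr4a1, at 511 and 64.1 against 258 and 25.8 CPM (adjusted p = 0.000292). The levels of Fos and Nr4a1 overlapped between the subsets and were higher in replicate 1 of both. Nr4a2, at 247 and 56.8 CPM in CD8+ and 121 and 21 CPM in CD4+ libraries, was the 1 gene added by the block with the opposite direction (adjusted p = 0.00284). The call for Ikzf3 was lost without CD4+ replicate 1 and that for Irf8 without replicate 1 of either subset, and of the 8 only Bach2, Ikzf2, and Nfkb1 passed whichever WT library was left out, with 4 of the list higher in CD4+ T cells without CD8+ replicate 1 or CD4+ replicate 2. Itgax, which encodes the integrin chain CD11c and is shared by dendritic cells and activated CD8+ T cells, measured 392 and 363 CPM in CD8+ and 70.5 and 62.2 CPM in CD4+ libraries (log2 fold change 2.51). Of the other dendritic cell genes, Zbtb46, Clec9a, and Xcr1 measured at most 0.804 CPM, and Flt3 and Siglech were at 0 in all 4 libraries. Among genes whose average over the 4 libraries reached a log2 CPM of 3, the largest differences after the Cd8 genes were those of Adgrg5 (log2 fold change 4.60), Crtam, Gzmk, Jaml, an adhesion molecule of activated T cells (3.37), Bend4 (3.33), Eomes, Klrk1, Wdr95 (2.95), Adamts14 (2.94), and Ccl5.

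Of the 30 helper cytokines and ligands tested, 17 were higher in CD4+ and none in CD8+ T cells (22 and 1 with the replicate block), beside 5.59% and 4.91% of all genes (13% and 11.2%). The other 13 did not pass, and 11 were higher in CD4+ T cells without CD8+ replicate 2. The median log2 fold change was -2.08. Cd40lg, the ligand through which helper T cells activate B cells and antigen-presenting cells, measured 192 and 164 CPM in CD4+ and 2.54 and 2.52 CPM in CD8+ libraries, 70.2-fold higher (log2 fold change -6.13 ± 0.23, adjusted p = 4.93e-07). Il21, the cytokine of follicular helper T cells, measured 65.2 and 73.9 against 4.31 and 6.07 CPM (log2 fold change -3.74). Tnfsf11, which encodes RANKL, measured 114 and 29.9 CPM in CD4+ and 5.03 and 1.48 CPM in CD8+ libraries, and its level in replicate 1 exceeded that in replicate 2 within both subsets; its call was lost without CD8+ replicate 2. Csf1, at 223 and 241 against 66.1 and 45.3 CPM, and Tnfsf8, which encodes CD30L, at 101 and 69.1 against 12.5 and 13.5 CPM, were higher in CD4+ T cells. Tnf was higher too, at 36.6 and 39.5 against 10.4 and 14.5 CPM (log2 fold change -1.61), and its call was lost without CD8+ replicate 1. Il2 was low in all libraries, at 5.32 and 5.00 CPM in CD4+ and 0.0445 and 0.359 CPM in CD8+ libraries. Ifng, the gene of the Th1 and cytotoxic cytokine IFN-γ and the most abundant of the list, measured 483 and 237 CPM in CD4+ and 357 and 258 CPM in CD8+ libraries, which overlap (adjusted p = 0.904). Among genes whose average over the 4 libraries reached a log2 CPM of 3, the largest differences after Cd4, Cd40lg, and Tnfsf11 were those of Tbc1d4, a regulator of glucose transporter traffic, at 150 and 124 against 8.01 and 10.1 CPM (log2 fold change -3.92), Asb2, part of a ubiquitin ligase (-3.87), Dnase1l3, a secreted nuclease (-3.84), Il21, and Nsg2 (-3.46).

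**Figure D3:**
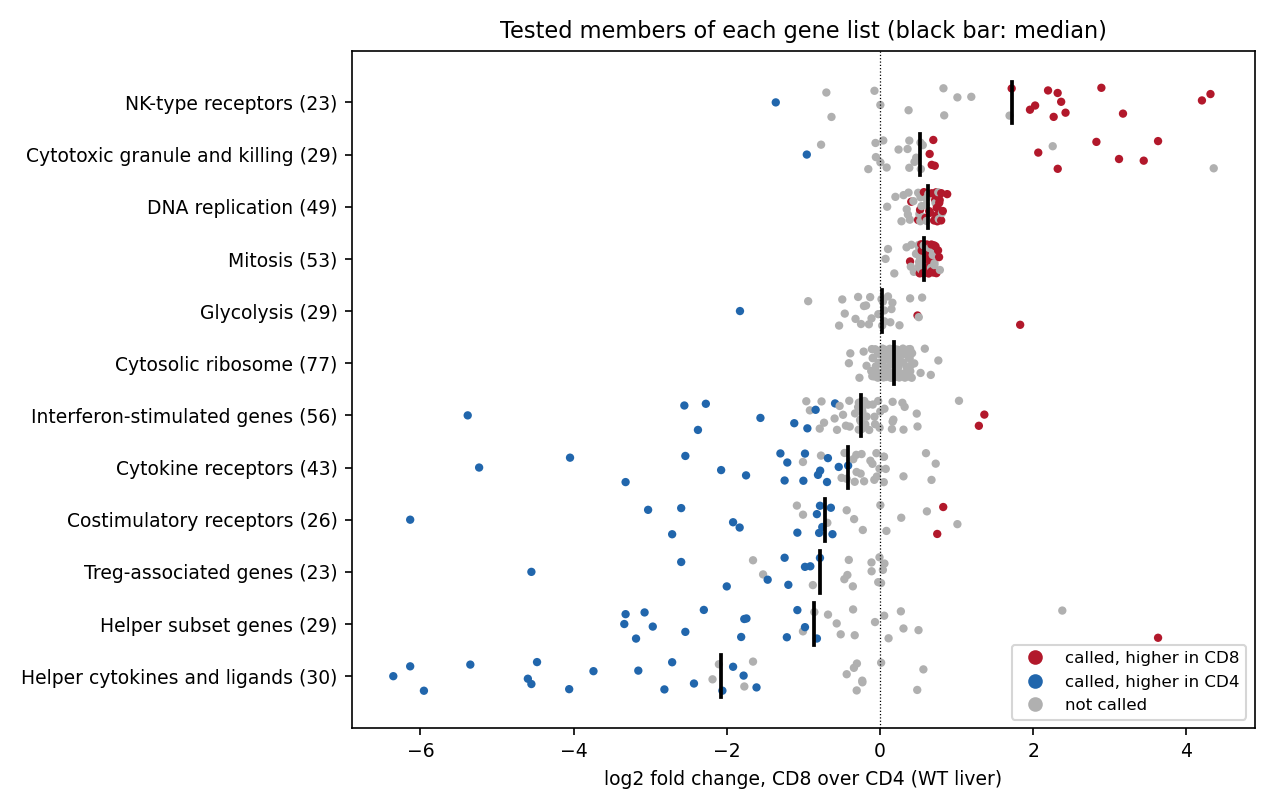
Each point is a tested gene of 1 of 12 lists, placed by its log2 fold change of CD8+ over CD4+ T cells in WT liver, with the number of genes in parentheses and a black bar at the median. Helper cytokines lie to the left (median -2.08) and NK-type receptors to the right (median 1.72), while the DNA replication and mitosis genes form narrow groups that lie wholly to the right of 0.

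Of the 29 tested genes tied to the helper subsets, 14 were higher in CD4+ and 1, Crtam, in CD8+ T cells, and the other 14 did not pass (median log2 fold change -0.86). With the replicate block 16 and 3 passed. Of all genes, 5.59% and 4.91% passed, and 13% and 11.2% with the block. Maf, a factor of Th2, Th17, and follicular helper T cells, measured 381 and 413 CPM in CD4+ and 53.1 and 41.3 CPM in CD8+ libraries (log2 fold change -3.07 ± 0.21, adjusted p = 2.18e-05). Of the follicular helper genes, Cxcr5 measured 9.23 and 12.3 against 1.29 and 0.839 CPM, Bcl6 10.6 and 18.7 against 3.96 and 4.79 CPM, and Il6ra 9.77 and 14.0 against 1.38 and 0.999 CPM. The call for Bcl6 was lost without CD8+ replicate 1 or CD4+ replicate 2. Of the Th2 genes, Ccr4 measured 8.18 and 8.34 against 0.890 and 0.919 CPM, and Il1rl1, which encodes the IL-33 receptor ST2, 309 and 306 against 157 and 156 CPM. Ahr, which encodes the aryl hydrocarbon receptor, measured 183 and 145 against 64.4 and 31.7 CPM (log2 fold change -1.77). Cxcr3, the chemokine receptor of Th1 and cytotoxic cells, measured 167 and 204 CPM in CD4+ and 223 and 225 CPM in CD8+ libraries and did not pass the test.

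Of the 23 tested genes that are high in regulatory T cells, 9 were higher in CD4+ and none in CD8+ T cells, also with the replicate block (14 and 0), beside 5.59% and 4.91% of all genes (13% and 11.2%), with a median log2 fold change of -0.78 that was -0.521 without CD4+ replicate 1. The defining gene was not among them: Foxp3 measured 21 and 30.7 CPM in CD4+ and 23.8 and 13.7 CPM in CD8+ libraries (adjusted p = 0.475). Il2ra, which encodes CD25, overlapped between the subsets, at 270 and 292 CPM in CD4+ and 293 and 267 CPM in CD8+ libraries (log2 fold change -0.01 ± 0.15). The members that differed included Tnfrsf4, which encodes OX40 and is also an activation marker, at 185 and 151 CPM in CD4+ and 32.4 and 23.4 CPM in CD8+ libraries (log2 fold change -2.59), Izumo1r, which encodes folate receptor 4, with a log2 fold change of -2.00, Ikzf2, which encodes Helios, at 84.0 and 73.4 against 31.5 and 25.5 CPM, and Ebi3, at 8.73 and 12.3 against 0.534 and 0.359 CPM.

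Of 26 costimulatory receptors and ligands, 13 were higher in CD4+ and 2 in CD8+ T cells, beside 5.59% and 4.91% of all genes (median log2 fold change -0.72). Without 1 library 6 to 9 were higher in CD4+ T cells, fewest without CD8+ replicate 2, and the list shares Cd40lg, Tnfsf8, and Cd70 with the helper list. Icos measured 1453 and 1107 CPM in CD4+ and 685 and 528 CPM in CD8+ libraries (log2 fold change -1.08), but its call was lost whichever library was left out (adjusted p = 0.0508 to 0.178). Tnfrsf25, which encodes DR3, measured 33.1 and 45.2 against 4.36 and 5.23 CPM (log2 fold change -3.03). The 2 with the opposite direction were Tnfrsf9, which encodes 4-1BB, at 207 and 158 CPM in CD8+ and 113 and 92.2 CPM in CD4+ libraries, and Cd27, at 218 and 220 against 132 and 129 CPM. The call for Tnfrsf9 was lost without any library but CD8+ replicate 2, and that for Cd27 without any but CD4+ replicate 1. Of 43 cytokine receptors and signaling genes, 17 were higher in CD4+ and none in CD8+ T cells (24 and 4 with the replicate block, beside 13% and 11.2% of all genes), and the other 26 did not pass, with a median of -0.41. Il7r, the receptor chain for the survival cytokine IL-7, measured 763 and 849 CPM in CD4+ and 180 and 300 CPM in CD8+ libraries (log2 fold change -1.75 ± 0.25, adjusted p = 0.00172). Il12rb2, a receptor chain for the Th1 cytokine IL-12, measured 324 and 325 against 168 and 157 CPM.

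Inhibitory receptors, listed with some of their ligands (among them Cd200, Cd274, and Pdcd1lg2), were divided between the subsets. Of the 22 tested, 4 were higher in CD8+ T cells (Lag3, Cd160, Cd244a, and Cd72) and 7 in CD4+ T cells (Btla, Cd200, Cd200r1, Vsir, Pdcd1lg2, Lilrb4a, and Cd5), and 6 and 11 were with the replicate block. Of all genes, 4.91% and 5.59% passed, and 11.2% and 13% with the block. Without 1 library 3 to 5 were higher in CD4+ T cells, fewest without CD8+ replicate 1. Lag3 measured 319 and 300 CPM in CD8+ and 183 and 228 CPM in CD4+ libraries (log2 fold change 0.59), and its call was lost without any library but CD4+ replicate 2. Btla measured 194 and 232 CPM in CD4+ and 93.7 and 114 CPM in CD8+ libraries (log2 fold change -1.04), and its call was lost without CD8+ replicate 1. The calls for Cd200r1 and Vsir were lost whichever library was left out, and that for Lilrb4a without any but CD4+ replicate 2. Pdcd1, which encodes PD-1, measured 376 and 307 CPM in CD8+ and 247 and 235 CPM in CD4+ libraries and passed with the replicate block (adjusted p = 0.0251) but not without it (adjusted p = 0.373), and the same held for Havcr2, which encodes TIM-3, at 378 and 377 against 279 and 222 CPM (adjusted p = 0.00402 and 0.101). Ctla4 varied more between replicates than between subsets, at 1301 and 494 CPM in CD4+ and 1086 and 319 CPM in CD8+ libraries. Cd28 did likewise, at 1367 and 620 against 852 and 383 CPM, and both passed with the replicate block only, lower in CD8+ T cells (adjusted p = 0.0194 and 0.000575).

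Proliferation genes differed by small amounts. All 49 DNA replication genes and all 53 mitosis genes tested had a positive log2 fold change, with medians of 0.63 and 0.57 and ranges of 0.09 to 0.88 and 0.07 to 0.78. The test called 25 and 22 of them, all higher in CD8+ T cells, and 44 and 49 with the replicate block, beside 4.91% and 11.2% of all genes. Mki67, the proliferation marker Ki-67, measured 2204 and 1902 CPM in CD8+ and 1676 and 1449 CPM in CD4+ libraries (log2 fold change 0.39 ± 0.11, adjusted p = 0.0440). Mcm5, part of the replicative helicase, measured 442 and 315 against 269 and 205 CPM, and Ccnb2, a mitotic cyclin, 205 and 176 against 125 and 103 CPM. The calls for these 3 genes were lost without CD8+ replicate 1 or CD4+ replicate 2. The number of calls changed with the library left out. Those runs did not use the replicate block and left the replicates unequal between the subsets, so a shift between replicates could enter the contrast. The part of such a shift in the lost calls was not tested. Of the DNA replication and mitosis genes, 5 and 2 passed without CD8+ replicate 1, without CD4+ replicate 2 it was 6 and 3, without CD8+ replicate 2 it was 18 and 11, and without CD4+ replicate 1 it was 22 and 24. The summed level of the DNA replication genes was 7141 and 5861 CPM in CD8+ and 4750 and 3985 CPM in CD4+ libraries, so replicate 1 exceeded replicate 2 within both subsets.

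Metabolic and ribosomal lists differed in how many members passed the test, beside 10.5% of all genes. By direction, 4.91% of all genes were higher in CD8+ and 5.59% in CD4+ T cells, and 11.2% and 13% with the replicate block. No gene of the cytosolic ribosome (77 tested), 1 of 71 oxidative phosphorylation genes, Ndufa4, 3 of 29 glycolysis genes (Eno3 and Pfkp higher in CD8+, Ldhb in CD4+ T cells), and 3 of 63 MYC target and biogenesis genes passed the test, with medians of 0.18, 0.28, 0.02, and 0.18. With the replicate block, none of the ribosome genes and 11 of the oxidative phosphorylation genes passed, all 11 higher in CD8+ T cells, as did 4 glycolysis genes and 12 MYC target and biogenesis genes higher in CD8+ and 5 and 2 higher in CD4+ T cells, beside 24.3% of all genes. Myc itself measured 77.5 and 65.9 CPM in CD4+ and 69.0 and 49.8 CPM in CD8+ libraries and was among the genes that passed with the block only, lower in CD8+ T cells (adjusted p = 0.0481). The call for Ldhb was lost whichever library was left out, that for Pfkp without any library but CD8+ replicate 1, and that for Ndufa4 without any but CD4+ replicate 1. Of 39 genes of GSH metabolism, 6 were higher in CD8+ and 1, Idh2, in CD4+ T cells, and those higher in CD8+ T cells included Mgst2, a glutathione transferase, at 8.41 and 7.99 against 2.05 and 1.82 CPM. With the replicate block 8 and 3 passed. Of 56 interferon-stimulated genes, 9 were higher in CD4+ and 2, Ifit3 and Mx1, in CD8+ T cells, 19 and 3 with the replicate block, with a median of -0.24. Without CD8+ replicate 1 the median was -0.0777 and 4 genes were higher in CD4+ T cells, without each of the other libraries 7 were, and the lowest median was -0.432, without CD8+ replicate 2. The call for Ifit3 was lost whichever library was left out, and that for Mx1 without any but CD4+ replicate 2. The largest difference was that of the nucleic acid sensor family member Ifi204, at 25.5 and 17.0 CPM in CD4+ and 0.445 and 0.559 CPM in CD8+ libraries.

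Homing genes had no single direction, with 8 of 45 higher in CD8+ and 10 in CD4+ T cells, beside 4.91% and 5.59% of all genes, and 5 higher in CD8+ T cells without CD8+ replicate 1 or CD4+ replicate 2. The integrin chains Itga4 (2315 and 2089 against 1431 and 1290 CPM) and Itga1 (252 and 222 against 144 and 101 CPM) and the chemokine receptor Cx3cr1 (54.1 and 35.3 against 18.2 and 13 CPM) were higher in CD8+ T cells, as was Ly6c2 (240 and 331 against 51.6 and 53.4 CPM). The call for Cx3cr1 was lost whichever library was left out, and that for Itga4 without CD8+ replicate 1 or CD4+ replicate 2. The integrin chain Itgb1 (2191 and 1645 against 1027 and 910 CPM), the gut homing receptor Ccr9 (42.2 and 50.5 against 12.9 and 13.3 CPM), and the intestinal homing receptor Gpr15 (24 and 8.76 against 0.712 and 0.359 CPM) were higher in CD4+ T cells. Cxcr6, which holds T cells in the liver, measured 811 and 674 CPM in CD4+ and 510 and 645 CPM in CD8+ libraries and did not pass the test.

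The same contrast was made in the STAT3-/- and STAT3-/-PD-1-/- libraries, which share no library with the WT contrast, to see how far the lineage difference held without STAT3 or without both. In STAT3-/- T cells, 593 genes (4.81%) were higher in CD8+ and 594 (4.82%) in CD4+ T cells. Of the WT genes higher in CD8+ T cells, 437 passed in the same direction there, 72.2% of the WT list and 73.7% of the STAT3-/- list, and of those higher in CD4+ T cells 473 did, 68.7% and 79.6%. In STAT3-/-PD-1-/- T cells, 203 genes (1.65%) were higher in CD8+ and 308 (2.5%) in CD4+ T cells. The genes shared with WT numbered 170, 28.1% of the WT list and 83.7% of the other, and 240, 34.8% and 77.9%. None of the WT genes passed in the opposite direction in either genotype. The sign of the difference was that of WT for 99.3% and 99.1% of the WT genes in STAT3-/- and for 98% and 96.8% in STAT3-/-PD-1-/- T cells, beside 49% and 51%, and 51.8% and 48.2%, of all genes with that sign. Passed in all 3 genotypes were 156 genes higher in CD8+ and 223 genes higher in CD4+ T cells.

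The size of the lineage difference was then tested between genotypes. Between WT and STAT3-/- no gene passed (0%, 228 at an unadjusted p under 0.05, 0 with the replicate block, and 5 with DESeq2). In simulation this test recovered 19% of genes whose difference changed by 1 and 89% of those changed by 2 on the log2 scale, so most differences of 2-fold would be missed. Between WT and STAT3-/-PD-1-/- 1 gene passed, Ccl5 (0.00811%), and 84 (0.681%) passed with the replicate block. Ccl5 measured 156 and 165 CPM in CD4+ and 521 and 576 CPM in CD8+ libraries of the STAT3-/- group, and 69.0 and 70.4 CPM in CD4+ and 105 and 98.4 CPM in CD8+ libraries of the STAT3-/-PD-1-/- group. Its log2 fold change of CD8+ over CD4+ T cells was thus 2.89 in WT T cells, 1.77 where STAT3 was lacking, and 0.55 where PD-1 was lacking too, and the difference between WT and STAT3-/-PD-1-/- was 2.35 ± 0.17 (SE, adjusted p = 0.000614). The next genes by significance, Faxc, Heatr9, Eomes, and Deptor, had adjusted p values of 0.0694, 0.0694, 0.0828, and 0.0828. The CD8+ libraries of the STAT3-/-PD-1-/- group also held less Cd8a, at 595 and 589 CPM, than those of WT, and their CD4+ libraries less Cd4, at 1323 and 1242 CPM, and the part of this in the smaller differences there was not tested.

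**Figure D4:**
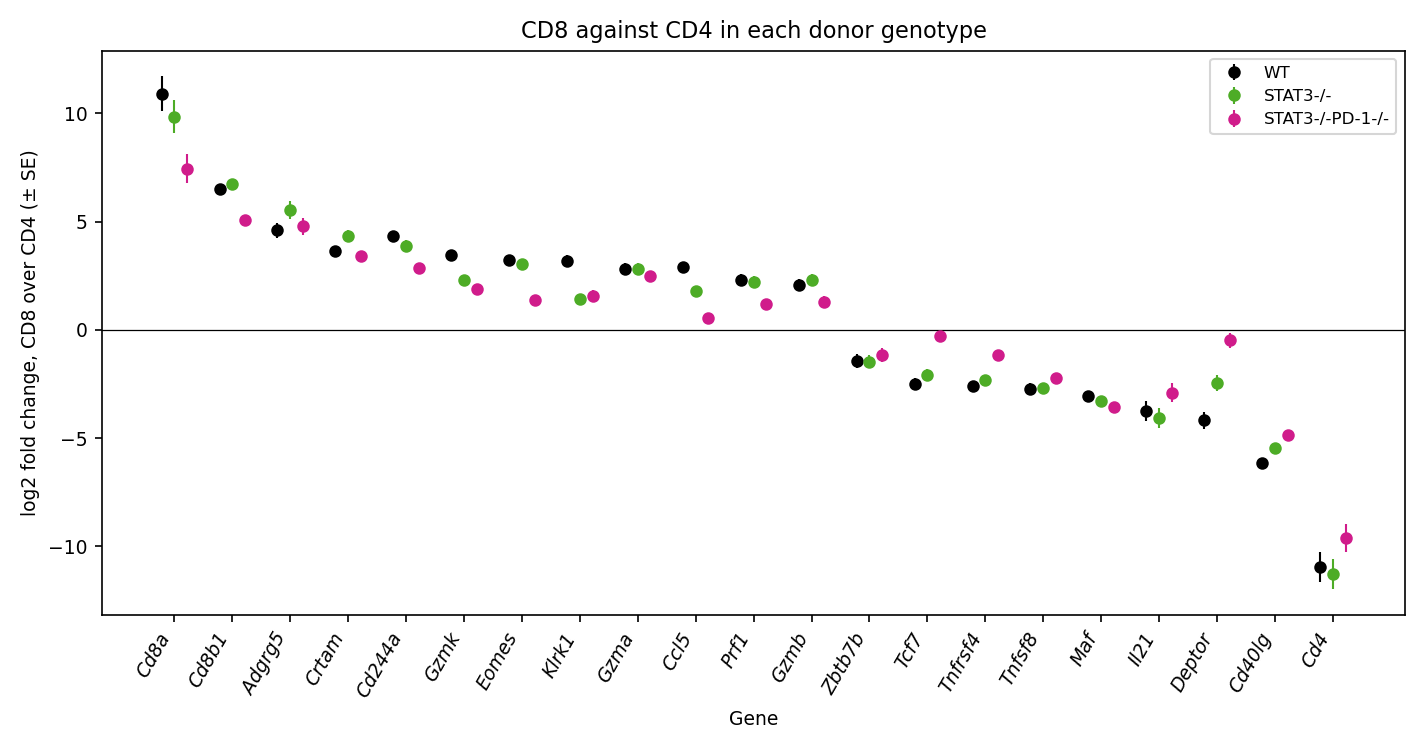
The log2 fold change of CD8+ over CD4+ T cells is plotted with its SE for 21 genes, with 2 libraries a side in each genotype (WT black, STAT3-/- green, STAT3-/-PD-1-/- magenta). The direction is the same in all 3 genotypes for every gene shown, and Ccl5 falls from 2.89 in WT to 0.55 in STAT3-/-PD-1-/- T cells.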

How the data were processed

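RNA-seq libraries of sorted liver T cells were used as the authors deposited them, as raw counts per gene and as RPKM. According to the study's methods, the authors aligned the reads with STAR to mm10 and obtained the deposited counts from RefSeq annotation by HTSeq-count. The deposited RPKM are relative to exon length and to a library size, close to the total count, that the authors set. Tissue, cell type, genotype, transplantation, and day are from the labels, whose culture, treatment, and library protocols describe another experiment and were not used. Whether counting used strand is not given in the sources used here. The table held 25078 gene rows, 26 of which had been turned into dates by a spreadsheet, and 4 names occurred more than once. The rRNA precursor Rn45s took 0.723% to 1.57% of the counts of the WT libraries.

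Counts were fitted with edgeR 4.0.16 in R 4.3.3 over all 12 libraries (filterByExpr with a minimum count of 10 and a total of 15, TMM factors, quasi-likelihood test, 1 mean per group, 6 residual degrees of freedom), and p values were adjusted by the Benjamini-Hochberg method over 12334 genes. A call is an adjusted p under 0.05. The biological coefficient of variation was 0.18. With 2 libraries a side the smallest two-sided exact permutation p is 0.333, so no single value was tested alone, and p values measure the spread between pools, which may be partly technical. Replicates differed by more than sampling noise (chi-square per degree of freedom of 69 for CD4+ and 57.7 for CD8+ T cells). Counts were simulated with 200 changed genes, all with a mean CPM of at least 5. On these counts the WT comparison recovered 72% of genes changed by 1 and 99% of genes changed by 2 on the log2 scale, with 5% of calls false. The test of the difference between WT and STAT3-/- donors recovered 19% and 89%.

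The labels number the replicates alike in both subsets. The deviations of same-numbered CD4+ and CD8+ libraries from their group means correlated across genes with r = 0.588 for the WT group, 0.583 for STAT3-/- donors, and 0.646 for STAT3-/-PD-1-/- donors. The numbers were therefore taken to pair the libraries. In the labels, replicate 1 of every group falls in one run of library numbers and replicate 2 in another. A shift between these runs would also give such correlations, so they cannot tell a shared pool from a shared run of numbers. The study's supplement states that both subsets came from the livers of the same recipients, and no source says which number marks which pool. The fit with the replicate block had 3 residual degrees of freedom, and in simulation 7.39% of its calls were false. The simulated libraries were drawn independently, with no shift between replicates, so this rate does not cover data that have such a shift.

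Named genes were all members of the lineage list, the 12 largest differences each way where the mean log2 CPM reached 3, up to 4 called members of each list each way and its preset members, and the 5 most significant genes of each difference between genotypes. Other genes were named after their values were seen. The comparison and the gene lists were chosen with earlier results of these data known. Motifs were searched in RefSeq promoter windows. Alternatives were DESeq2 1.42.0, other size factors and filters, limma 3.58.1 on the deposited RPKM with pseudocounts of 1 and 0.1, the block, and leaving out a library. A library was left out in the fit without the block, so the replicates were then unequal between the subsets. A call lost in such a run can thus also reflect a shift between replicates. Figures were drawn with matplotlib 3.10.9.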

Additional observations from a re-analysis of the deposited data

Results flagged for a closer look

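The difference between CD8+ and CD4+ T cells in Ccl5 was itself different between WT and STAT3-/-PD-1-/- donors, by 2.35 ± 0.17 (SE) on the log2 scale (edgeR quasi-likelihood test of the difference, adjusted p = 0.000614). Ccl5 was higher in CD8+ T cells of both genotypes, in 2 of 2 library pairs each, and the STAT3-/- value lay between them.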

How the results depend on the processing

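No gene named as differing between WT CD8+ and CD4+ T cells changed sign under any alternative run, and 70 of these 108 genes passed in every alternative that tested them. The number of genes called, 1294 (605 higher in CD8+, 689 in CD4+ T cells), was 818 (318 and 500) when only the 4 WT libraries were fitted, 743 (319 and 424) with a log2 fold change of at least 1, 2991 (1386 and 1605) with the replicate block and 2782 (1381 and 1401) with this block in the 4 WT libraries. Genes higher in CD8+ and in CD4+ T cells numbered 466 and 447 with a mean CPM of at least 5 and 464 and 456 with limma on log2(RPKM + 0.1), so that the side with more genes turned. Without 1 library, where the lone library of its arm was assumed to vary like the other groups, the count ranged from 611 to 819, with 263 to 351 higher in CD8+ and 344 to 468 in CD4+ T cells. Calls that were lost whichever of the 4 WT libraries was left out included those of Icos, Cx3cr1, Gzmm, and Ifit3, and those of Mki67, Mcm5, Nkg7, and Tnfsf10 were lost without CD8+ replicate 1 or without CD4+ replicate 2.

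The share of WT calls also made in STAT3-/- T cells, 70.3%, was 73.4% with a mean CPM of at least 5, 73.1% with the replicate block, 66.4% with a log2 fold change of at least 1, and 77.2% to 84.4% without 1 library. In STAT3-/-PD-1-/- T cells the share, 31.7%, was 37.1% with DESeq2, 35.5% with all genes with a count, 43.6% with the replicate block, 35.3% with a log2 fold change of at least 1, and 39.6% to 46.4% without 1 library. The number of genes whose difference between subsets differed from WT, 0 for STAT3-/-, was 5 with DESeq2 and 1 with limma on log2(RPKM + 1). For STAT3-/-PD-1-/- it was 1, against 75 with DESeq2, 50 with all genes with a count, 84 with the replicate block, and 5 with limma on log2(RPKM + 1), so that this number depends on the test.

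Without 1 library the median log2 fold change of the lists ranged from 0.302 to 0.707 for cytotoxic genes, 1.32 to 2.12 for NK-type receptors, -2.44 to -1.86 for helper cytokines, -0.92 to -0.521 for regulatory T cell genes, -0.963 to -0.684 for helper subset genes, -0.85 to -0.537 for costimulatory genes, -0.535 to -0.322 for cytokine receptors, -0.432 to -0.0777 for interferon-stimulated genes, and 0.403 to 0.789 for mitosis genes. With a mean CPM of at least 5 it was 2.05 for NK-type receptors, -1.63 for helper cytokines, -0.956 for helper subset genes. With limma on log2(RPKM + 1) it was 1.14 for NK-type receptors, -1.27 for helper cytokines, -1.04 for helper subset genes. With limma on log2(RPKM + 0.1) it was -1.71 for helper cytokines, -1.07 for helper subset genes. In the 4 WT libraries alone it was -0.925 for helper subset genes.

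Of genes that did not pass, the log2 fold change of Il2ra was 0.00383 with upper-quartile factors, 0.0155 with a mean CPM of at least 5, 0.00207 and 0.0021 with limma on log2(RPKM + 1) and log2(RPKM + 0.1), and that of Ikzf1 was 0.00663, 0.0186, 0.0026, and 0.00259 in the same order. Without 1 library their values ranged from -1.49 to 0.512 for Ctla4, -2.91 to 0.271 for Cxcl10, -0.183 to 1.68 for Fasl, -0.661 to 0.379 for Ifng, -0.115 to 0.0901 for Ikzf1, -0.0694 to 0.0444 for Il2ra, -3.48 to 1.15 for Nr4a1, -0.32 to 2.86 for Nr4a2, -0.0379 to 0.0933 for Patz1, -0.037 to 0.223 for Runx3, and -0.161 to 0.456 for Tbx21. The cause of these changes was not tested. The replicate block changed the call of no gene described above other than those given with it and Runx1, Bcl11b, Myb, Ets1, Myc, and Itgam. Preset members of the lists that are not described above and passed with the block only included Tigit, lower in CD8+ T cells, and Top2a, higher in CD8+ T cells (adjusted p = 0.0308 and 0.00859). Genes below 3 counts in a library, 0.136 CPM in the first CD4+ library, could not be told from 0.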

Other observations

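Some of the genes with a CD8+ bias lay near each other in the genome (GRCm38/mm10), and those named here were chosen after their values were seen. Whether genes with such a bias lie near each other more often than other genes was not tested. Smyd1, the gene of a muscle histone methyltransferase, lies 60507 bases from Cd8b1 at chr6:71213940-71262281 and measured 29.8 and 32.6 CPM in CD8+ and 0.0909 and 0.127 CPM, which is 2 and 3 counts, in CD4+ libraries. Heatr9 lies 3680 bases from Ccl5 and measured 13.2 and 15.1 against 1.32 and 1.48 CPM (log2 fold change 3.33). Gzma and Gzmk lie 70649 bases apart. On the far side of Gzma, Cdc20b, 2689 bases away, measured 1.07 and 0.959 CPM in CD8+ and 0.136 and 0.169 CPM in CD4+ libraries, and Gpx8, 47436 bases away, measured 1.29 and 1.24 CPM in CD8+ libraries and was at 1 count in each CD4+ library. Klrh1, in the cluster of NK-type receptor genes, measured 9.87 CPM in both CD8+ libraries and 0.0909 and 0.212 CPM in CD4+ libraries. By contrast, Lag3 lies 16159 bases from Cd4 and was higher in CD8+ T cells.

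Genes of the T cell receptor complex and its signaling included 9 of 33 higher in CD4+ and 1 in CD8+ T cells (11 and 5 with the replicate block), beside 5.59% and 4.91% of all genes (13% and 11.2%). Without 1 library 4 to 6 were higher in CD4+ T cells, fewest without CD8+ replicate 1. Cd6, a receptor that tunes T cell activation, measured 501 and 581 CPM in CD4+ and 209 and 205 CPM in CD8+ libraries (log2 fold change -1.39), Cd247, which encodes the CD3 ζ chain, 741 and 606 against 415 and 421 CPM (-0.69), and the kinase gene Zap70 539 and 582 against 424 and 394 CPM (-0.45). Ubash3b, a phosphatase that dampens T cell receptor signals, was the exception, at 255 and 217 CPM in CD8+ and 130 and 122 CPM in CD4+ libraries (0.91). Of 22 anergy genes (11 and 5 with the block), 7 were higher in CD4+ T cells, among them Dtx1, at 209 and 192 against 106 and 75.8 CPM, and 3 in CD8+ T cells, among them the ubiquitin ligase gene Nedd4, at 80.2 and 63.9 against 26 and 19.2 CPM. Without CD8+ replicate 1 these counts were 2 and 1. Of 30 apoptosis genes, 3 were higher in CD4+ T cells (Casp1, Casp4, and Bbc3), beside 5.59% of all genes. With the block 10 were, beside 13% of all genes, and without CD8+ replicate 1 the 3 calls were lost. In CD8+ T cells 1, Bid, was higher, at 52 and 52.2 against 27.3 and 27.1 CPM, beside 4.91% of all genes. Bid encodes the protein through which granzyme B engages mitochondria in a target cell.

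The Th2 cytokine genes Il4 and Il13 were low in WT liver T cells. Il13 measured 4.27 and 2.24 CPM in CD4+ and 0.267 and 0.12 CPM in CD8+ libraries, and Il4 measured 1 and 1.14 CPM in CD4+ and 0.0445 and 0 CPM in CD8+ libraries.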
